A study of Mus musculus with 20 samples.

Results

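The respiratory chain of the inner mitochondrial membrane passes electrons from NADH and succinate to oxygen and uses the energy to pump protons, and ATP synthase makes ATP from the proton gradient. Complex I oxidises NADH, complex II oxidises succinate, complex III hands electrons to cytochrome c, complex IV reduces oxygen, and complex V is ATP synthase. Most subunits are encoded in the nucleus and made in every cell, but several small subunits of complex IV have a second gene that is used mainly in heart, skeletal muscle, brown fat, lung or testis. The genes described here are those whose name in the spot files of the arrays begins with Nduf, Uqcr, Atp5, Cox followed by a digit of complex IV subunits, or is Sdha, Sdhb, Sdhc or Sdhd. The rule found 82 genes with 113 probes among 27962 names of probes that are not controls, and used no measured value. Of these, 81 could be tested, each by its probe with the brightest lung signal. Complex I had 35 genes, complex II 4, complex III 7, complex IV 17 and complex V 15, with Ndufa4 counted in complex IV, where its protein sits. A further 4 genes carry such a name without being subunits: Ndufaf1, an assembly factor of complex I, Cox7a2l, a factor of supercomplexes, Cox4nb, a neighbour of Cox4i1, and Atp5s, a coupling factor-like protein. The gene that could not be tested was Cox8c, a testis isoform, whose probe was well above background on 0 of 20 arrays.

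The study measured whole lungs of 20 time-mated female C57BL/6BomTac mice, 5 in each of 4 groups. Dams received particles of carbon black Printex 90 into the trachea at 4 times in pregnancy (gestational days 7 and 10, then 15 and 18). The amount was 2.75, 13.5 or 67 µg each time. The total was 11 µg in the low, 54 µg in the medium and 268 µg in the high group, and controls received the Milli Q water vehicle on the same days. Lungs were taken 26 to 27 days after exposure, once the litters had been weaned, so all groups had been pregnant and had nursed. Each dam's RNA was labelled with Cy5 and hybridised beside Universal Reference RNA labelled with Cy3 on 1 array, with no dye swap. Every level below is the log2 ratio of lung over reference in the authors' deposited value table, and every difference is a difference between group means of that ratio. A level therefore compares lung with the reference for 1 probe, and levels of different genes are not compared as amounts. In a whole lung, fewer cells of a type and less RNA per cell cannot be told apart.

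The labelled tissue fitted its markers, since 7 of 7 lung genes (Sftpc, Sftpa1, Sftpb, Scgb1a1, Ager, Pecam1 and Cldn18) lay above the reference in all 20 dams, the lowest value being 2.30 for Pecam1. All 81 tested members were well above background on all 20 arrays, and 0 had a saturated spot. The lung signal of 75 members had a geometric mean over 1000 intensity units, and the dimmest was Cox4i2 at 122.9. Arrays lay on 6 slides. A dam of every group lay on slides 1 to 3 as numbered here, no medium dam lay on slides 4 and 5, and slide 6 carried medium dams 49 and 50 alone. Dams 49 and 50 were also the only dams scanned on their day, so slide and scan day cannot be told apart for them. Slide 3 held control dam 14, low dam 28, medium dam 48 and high dam 63, which matters for the isoforms below.

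No respiratory chain gene passed the test at any dose. With limma's moderated test and Benjamini-Hochberg adjustment over 20120 genes, 0 of 81 members had an adjusted p under 0.05 at the high dose, where 1.04% of all genes tested did (101 higher and 108 lower). At the medium and the low dose 0 of 81 passed, against 0.00497% of all genes in each. The trend over the 4 dose steps likewise called 0 members, against 1.36% of all genes. Before adjustment, p was under 0.05 for 1 subunit on the higher and 3 on the lower side of 77 at the high dose, against 7.71% and 8.86% of all genes. At the medium dose the counts were 1 and 5, against 7.63% and 6.46%, and at the low dose 0 and 0, against 3.45% and 4.06%.

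The intervals around these differences were narrow. The 95% interval lay wholly within a 1.25-fold change either way for 70 of 77 subunits at the high dose (90.9%), beside 70.5% of all genes. The same held for 68 subunits at the medium dose (88.3%, beside 71.1%) and 73 at the low dose (94.8%, beside 76.4%). A 1.5-fold change was outside the interval of 74 of 77 subunits at every dose, and the 3 exceptions were Cox7a1, Cox8b and Cox6a2. The median difference of the 77 subunits was -0.02 at the high, -0.03 at the medium and 0.01 at the low dose, beside -0.01, 0.01 and 0.00 over all genes. The 3 dose comparisons share the same 5 control dams, so their values are given side by side and are not independent.

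**Figure D1:**
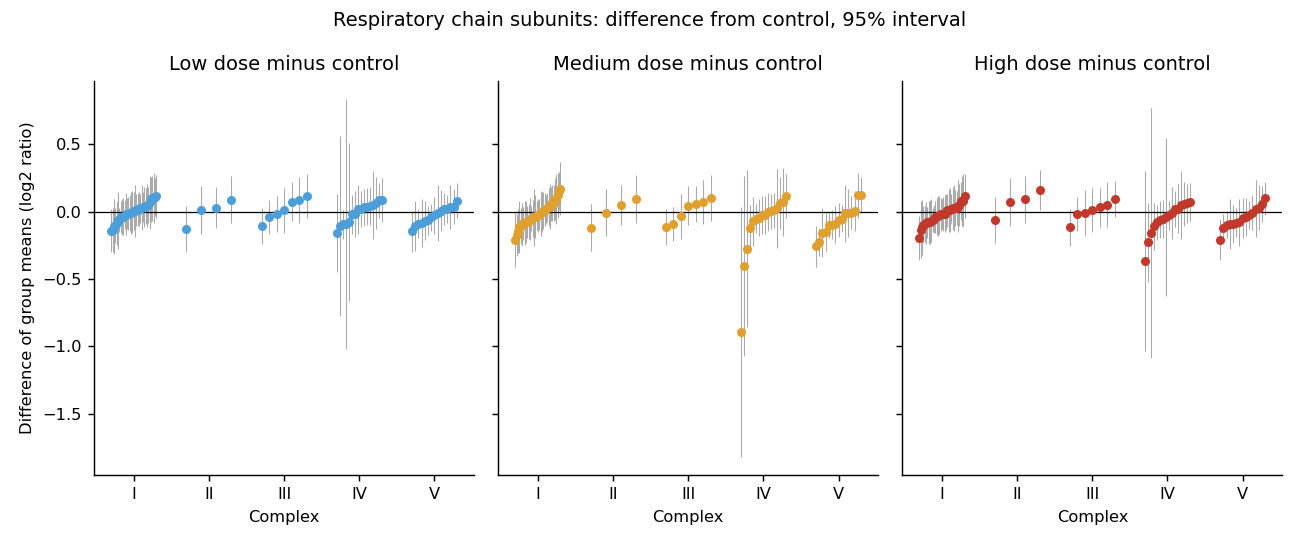
Difference of each subunit from control in log2 lung/reference ratio (vertical axis), at each dose, with subunits sorted within complexes I to V (horizontal axis). Points are differences of group means of 5 dams and grey bars are 95% intervals from limma. Most points lie close to 0, and the wide bars in complex IV belong to Cox7a1, Cox8b and Cox6a2.

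The complexes differed little between the groups when their subunits were averaged in each dam. The mean of the 35 complex I subunits was -0.35 ± 0.06 (SD, n = 5) in controls, -0.35 ± 0.08 in low, -0.36 ± 0.07 in medium and -0.37 ± 0.04 in high dams. For the 4 subunits of complex II the means were -0.37 ± 0.07, -0.37 ± 0.10, -0.36 ± 0.04 and -0.30 ± 0.13 in the same order. For complex III, with 7 subunits, they were -0.44 ± 0.06, -0.42 ± 0.08, -0.44 ± 0.10 and -0.44 ± 0.07. For complex V, with 15 subunits, they were -0.34 ± 0.05, -0.37 ± 0.07, -0.40 ± 0.06 and -0.38 ± 0.03. In all 4 complexes the ranges of exposed and control dams overlapped at every dose. Complex IV had the widest ranges: the mean of its 16 tested subunits was -0.19 ± 0.15 in controls and -0.29 ± 0.15 in medium dams. Without Cox6a2, Cox7a1 and Cox8b, the mean of the other 13 was -0.50 ± 0.06 in controls, -0.49 ± 0.10 in low, -0.51 ± 0.11 in medium and -0.53 ± 0.07 in high dams.

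Dams differed from one another in the same way in several complexes. The lowest complex I means, -0.47 in medium dam 48, -0.45 in low dam 31, -0.42 in low dam 28 and -0.42 in control dam 14, came from the same 4 dams as the lowest complex III means, which were -0.60, -0.50, -0.51 and -0.51. Of these 4 dams, 3 lay on slide 3. The fourth dam of that slide, high dam 63, had -0.38 for complex I and -0.49 for complex III. Within slides, the mean high minus control difference over 5 slides was -0.02 for complex I, 0.07 for complex II, 0.01 for complex III, -0.05 for complex IV and -0.05 for complex V, and each of these differences ran from below to above 0 across the slides.

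**Figure D2:**
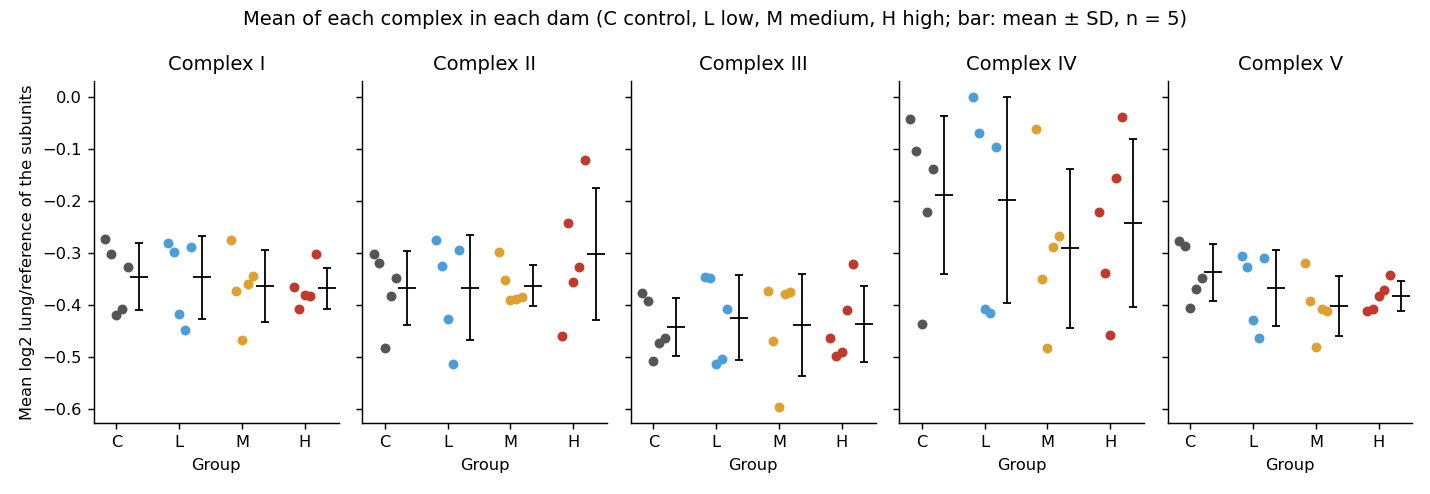
Mean log2 lung/reference ratio over the subunits of each complex (vertical axis) in each dam, by group (horizontal axis), with mean ± SD beside the 5 dams. The groups overlap in every complex, and complex IV spreads most, from -0.48 to 0.00.

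Complex V held the 2 members with the smallest adjusted p, Atp5c1 and Atp5b, and neither passed the test. Atp5b encodes the catalytic beta subunit of the F1 head. Its log2 ratio was 0.09, 0.09, -0.14, 0.09 and 0.08 in control dams 4, 7, 14, 15 and 18. It was -0.08, -0.24, 0.05, -0.16 and -0.09 in low dams 25, 27, 28, 31 and 36. It was -0.17, -0.12, -0.04, -0.32 and -0.43 in medium dams 46 to 50, and -0.29, -0.13, -0.15, -0.09 and -0.17 in high dams 60, 62, 63, 64 and 65. The controls other than dam 14 lay above all 15 exposed dams, and control dam 14 lay among them. The difference was -0.21 ± 0.07 (SE) at the high dose (adjusted p = 0.16), -0.26 ± 0.07 at the medium dose (adjusted p = 0.175) and -0.15 ± 0.07 at the low dose (adjusted p = 0.682), with limma. The other 2 kept probes of Atp5b gave -0.20 and -0.06 at the high and -0.29 and -0.19 at the medium dose. On the 5 slides shared by high and control dams the high dam was lower on all 5, from -0.38 to 0.00, with a mean of -0.21. On the 3 slides that hold medium and control dams, the mean difference of Atp5b at the medium dose was -0.12, from -0.26 to 0.11, and with slide as a block it was -0.14.

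Atp5c1 encodes the gamma subunit, the rotating central stalk of the same enzyme. Its values were -0.28, -0.26, -0.26, -0.20 and -0.14 in controls and -0.40, -0.56, -0.40, -0.43 and -0.48 in medium dams, so that all 5 medium dams lay below all 5 controls. High dams had -0.43, -0.36, -0.34, -0.28 and -0.34 and also lay below the controls, although the highest of them and the lowest control were both -0.28 at this precision. Low dams, at -0.27, -0.47, -0.34, -0.29 and -0.22, overlapped the controls. Atp5c1 was the 1 member of 81 whose groups did not overlap at the high and at the medium dose, in both on the lower side, where 2% (high) and 1.25% (medium) of all genes did the same, and 0 members lay wholly above the controls (1.5% and 1.97% of all genes). The difference was -0.23 ± 0.05 (SE) at the medium dose, with an unadjusted p of 0.000266 and an adjusted p of 0.134. At the high dose it was -0.12 ± 0.05 (adjusted p = 0.232) and at the low dose -0.09 ± 0.05 (adjusted p = 0.73). All 3 slides shared with controls gave a lower value at the medium dose, from -0.30 to -0.12, and all 5 did at the high dose, from -0.20 to -0.07.

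The other 13 subunits of complex V had differences of both signs. Of all 15 subunits, 11 had a negative difference at the high dose, 12 at the medium and 9 at the low dose, while 46.7%, 52.5% and 50% of all genes had a positive one. Atp5o, the oligomycin sensitivity protein of the peripheral stalk, was named after its values were seen and differed by -0.15 ± 0.07 (SE) at the medium dose (adjusted p = 0.344). Atp5a1, the alpha subunit that forms the head with the beta subunit, differed by -0.10 ± 0.05 at the medium and -0.08 ± 0.05 at the high dose (adjusted p = 0.406 and 0.451), and was also named after its values were seen. Its other kept probe gave -0.02 at the medium and -0.03 at the high dose. The 3 genes for the c-ring, Atp5g1, Atp5g2 and Atp5g3, encode the same mature protein with different targeting sequences, and their differences at the high dose were -0.09, -0.05 and -0.01. Atp5j, coupling factor 6, had the highest ratio of complex V in controls, 0.49 ± 0.06 (SD, n = 5), and differed by -0.10 ± 0.05 (SE) at the medium and at the high dose (adjusted p = 0.367 and 0.325).

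**Figure D3:**
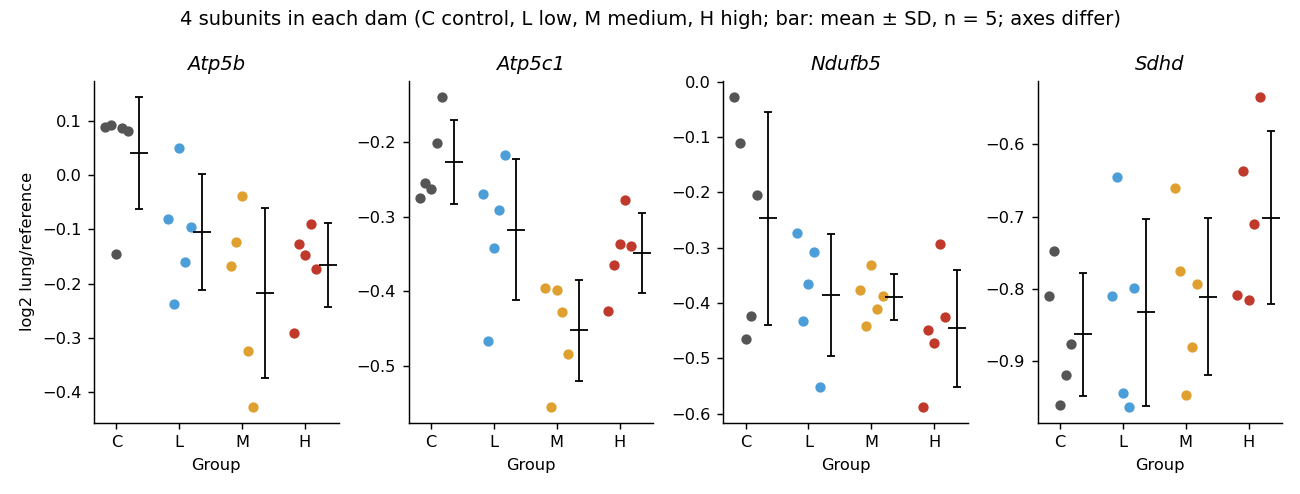
Log2 lung/reference ratio (vertical axes, which differ) of Atp5b, Atp5c1, Ndufb5 and Sdhd in each dam by group, with mean ± SD beside the 5 dams. All 5 medium dams lie below all 5 controls for Atp5c1, and control dam 14 lies at -0.14 for Atp5b, away from the other controls.

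In complex I the smallest p at the high dose belonged to Ndufb5, an accessory subunit of the membrane arm. Its values were -0.03, -0.11, -0.47, -0.42 and -0.21 in controls and -0.59, -0.45, -0.47, -0.29 and -0.43 in high dams. The controls spanned most of the range of the high dams, so the groups overlapped, with a difference of -0.20 ± 0.08 (SE, adjusted p = 0.204). Ndufb2 and Ndufb7, accessory subunits of the same arm, had differences of opposite sign at the medium dose, -0.17 ± 0.08 (adjusted p = 0.324) and 0.15 ± 0.07 (adjusted p = 0.334). Ndufa10, named after its values were seen, had the lowest difference of the complex at that dose, -0.21 ± 0.10 (adjusted p = 0.344). Ndufv1, the flavin subunit that binds NADH, differed by -0.10 ± 0.06 at the high dose (adjusted p = 0.489). The subunits that carry only iron-sulphur clusters, named for that role, differed by -0.09 ± 0.06 (Ndufv2), -0.08 ± 0.08 (Ndufs8), -0.04 ± 0.07 (Ndufs7) and 0.01 ± 0.06 (Ndufs1) at that dose. Their adjusted p values were 0.502, 0.662, 0.855 and 0.965, so these core subunits were among the lower and the middle values of the complex and none passed. Of the 35 subunits, 21 had a negative difference at the high, 20 at the medium and 17 at the low dose.

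Complex II, which is also an enzyme of the citrate cycle, had 3 of 4 subunits on the higher side at the high dose. Sdhd, one of the anchors in the membrane, had values of -0.81, -0.75, -0.96, -0.92 and -0.88 in controls and -0.81, -0.64, -0.82, -0.71 and -0.53 in high dams. High dams 62, 64 and 65 lay above all controls and the others did not, and the difference was 0.16 ± 0.07 (SE, adjusted p = 0.257). The high dam was the higher on all 5 slides it shared with a control, by 0.00 to 0.34. Sdhc, the other anchor, differed by 0.07 ± 0.09 and Sdha, the flavoprotein, by 0.09 ± 0.08, while the iron-sulphur subunit Sdhb differed by -0.06 ± 0.08. A second probe of Sdha gave -0.10 at the high dose where the brightest gave 0.09, so the sign for Sdha depends on the probe. In complex III the largest differences at the high dose were -0.12 ± 0.06 for Uqcrc1, a core protein (adjusted p = 0.38), and 0.09 ± 0.06 for Uqcrfs1, the Rieske iron-sulphur protein (adjusted p = 0.502). At the medium dose Uqcrfs1 had the opposite sign, -0.11 ± 0.06 (adjusted p = 0.434). Uqcrh, the hinge protein, differed by 0.01 ± 0.08 at the high and 0.12 ± 0.08 at the low dose.

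The tissue isoforms of complex IV gave the largest differences among the dams. The within-group SD over the 20 dams was 0.77 for Cox7a1, 0.56 for Cox8b and 0.49 for Cox6a2, while the median member had 0.11, the next highest member had 0.24 and the median of all genes was 0.12. Only 0.452%, 1.16% and 1.56% of all genes tested had a larger SD than Cox7a1, Cox8b and Cox6a2. All 3 are the isoforms of heart and skeletal muscle, and Cox7a1 and Cox8b are used in brown fat as well. Their partners Cox7a2, Cox8a and Cox6a1 are made in most tissues.

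The promoter stretches below are the 250 bases before the transcription start from RefSeq on GRCm38.p6, in lower case, with 2 motifs in capitals where they were found on either strand: the NRF1 motif GCGCANGCGC, bound by a regulator of nuclear genes for mitochondria, and the ETS motif CCGGAAG, of the kind bound by GABP. Cox6a1 and Sdhd are shown as examples that hold both motifs, and Cox7a1 and Cox8b because their values vary most. Atp5h and Atp5k, not shown, also hold both motifs in the longer windows described below.
Cox6a1, chr5:115348959-115349208, minus strand: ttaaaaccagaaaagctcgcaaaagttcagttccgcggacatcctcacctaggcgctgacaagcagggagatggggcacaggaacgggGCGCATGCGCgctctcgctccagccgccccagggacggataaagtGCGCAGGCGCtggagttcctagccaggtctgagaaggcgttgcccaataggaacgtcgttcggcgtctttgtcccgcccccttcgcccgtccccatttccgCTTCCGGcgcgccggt
Sdhd, chr9:50603850-50604099, minus strand: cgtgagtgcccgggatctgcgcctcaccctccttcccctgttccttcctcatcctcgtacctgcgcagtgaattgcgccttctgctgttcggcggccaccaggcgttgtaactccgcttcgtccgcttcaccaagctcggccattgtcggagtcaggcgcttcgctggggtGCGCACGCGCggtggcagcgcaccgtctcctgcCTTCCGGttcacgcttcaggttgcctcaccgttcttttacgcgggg
Cox7a1, chr7:30183921-30184170, plus strand: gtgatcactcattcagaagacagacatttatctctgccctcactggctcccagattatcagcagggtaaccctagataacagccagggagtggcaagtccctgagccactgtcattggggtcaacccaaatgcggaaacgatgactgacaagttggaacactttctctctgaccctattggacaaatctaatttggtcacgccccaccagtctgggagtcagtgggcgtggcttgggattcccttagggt
Cox8b, chr7:140900447-140900696, minus strand: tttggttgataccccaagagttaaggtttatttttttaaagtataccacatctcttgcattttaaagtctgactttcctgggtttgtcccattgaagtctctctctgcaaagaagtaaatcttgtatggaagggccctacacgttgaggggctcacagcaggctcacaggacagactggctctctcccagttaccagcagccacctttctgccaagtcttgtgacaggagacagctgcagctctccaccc
In Cox6a1 there were 2 copies of the NRF1 motif, ending 153 and 108 bases before the start, and the ETS motif ended 10 bases before it. The Cox7a1 and Cox8b stretches held neither, nor did those of the partners Cox7a2 and Cox8a, and the table of promoters had no entry for Cox6a2. In its longer window, which runs past the start, Cox8a had 2 ETS matches. Promoter windows of 300 bases, from 250 before to 50 after the start, were matched for 67 of 81 members, of which 64 were subunits. The NRF1 motif was found in 17 of these 64 genes (26.6%) and in 5.19% of all 27025 genes in the table. The ETS motif was found in 16 of 64 (25%) and in 9.93% of all genes. A motif for MEF2, a muscle transcription factor, was found in 0 of 64 and in 2.16% of all genes. A match describes letters in the window and does not show binding.

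Cox7a1 ranged from -1.07 to 1.16 over the dams. It was 0.99, 0.91, -1.07, 0.59 and 0.40 in controls and 1.16, 0.77, -0.29, -0.88 and 0.60 in low dams. Medium dams had 0.82, -0.77, -0.95, -0.92 and -0.84, and high dams 0.25, 0.00, -0.78, 0.65 and 0.90. The dams at or below -0.77 were control dam 14, low dam 31, medium dams 47 to 50 and high dam 63, and the groups overlapped at every dose. Cox7a1 differed by -0.89 ± 0.44 (SE) at the medium dose, the lowest value of any member, with an unadjusted p of 0.0581 and an adjusted p of 0.371 in limma's test. At the low and high dose it differed by -0.09 ± 0.44 and -0.16 ± 0.44. Within the 3 slides that hold medium and control dams the difference ran from -1.68 to 0.12, with a mean of -0.57. Cox7a2, its partner, ranged from -1.05 to -0.68 and differed by 0.01 ± 0.06 at the medium and 0.02 ± 0.06 at the high dose.

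Cox8b had the highest ratio of all members in controls, 2.89 ± 0.41 (SD, n = 5), or 7.43-fold above the reference. It was 3.29, 2.90, 2.24, 2.86 and 3.18 in controls, 3.50, 2.97, 2.31, 1.99 and 3.17 in low dams, 3.12, 2.08, 2.29, 2.69 and 2.27 in medium dams and 2.54, 2.12, 1.62, 2.86 and 3.49 in high dams. Control dam 14, low dams 28 and 31, medium dams 47, 48 and 50 and high dams 62 and 63 lay at or below 2.31. This order was not that of Cox7a1, since high dams 60 and 62 lay below medium dam 49 for Cox8b and above it for Cox7a1. The difference was -0.37 ± 0.32 (SE) at the high and -0.41 ± 0.32 at the medium dose (adjusted p = 0.61 and 0.589). Its partner Cox8a stayed between -0.71 and -0.33 in all 20 dams.

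Cox6a2 was 0.89, 0.54, -0.52, 0.29 and 0.21 in controls and 0.82, 0.45, -0.18, -0.52 and 0.46 in low dams. Medium dams had 0.69, -0.18, -0.09, -0.27 and -0.11, and high dams 0.15, 0.35, -0.53, 0.61 and 0.63. Medium dam 46 stood alone above the other medium dams. The difference was -0.27 ± 0.28 (SE) at the medium and -0.04 ± 0.28 at the high dose (adjusted p = 0.682 and 0.964). Cox6a1, the partner gene, ranged from 0.22 to 0.63 and differed by -0.06 ± 0.07 at the high dose (adjusted p = 0.695).

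**Figure D4:**
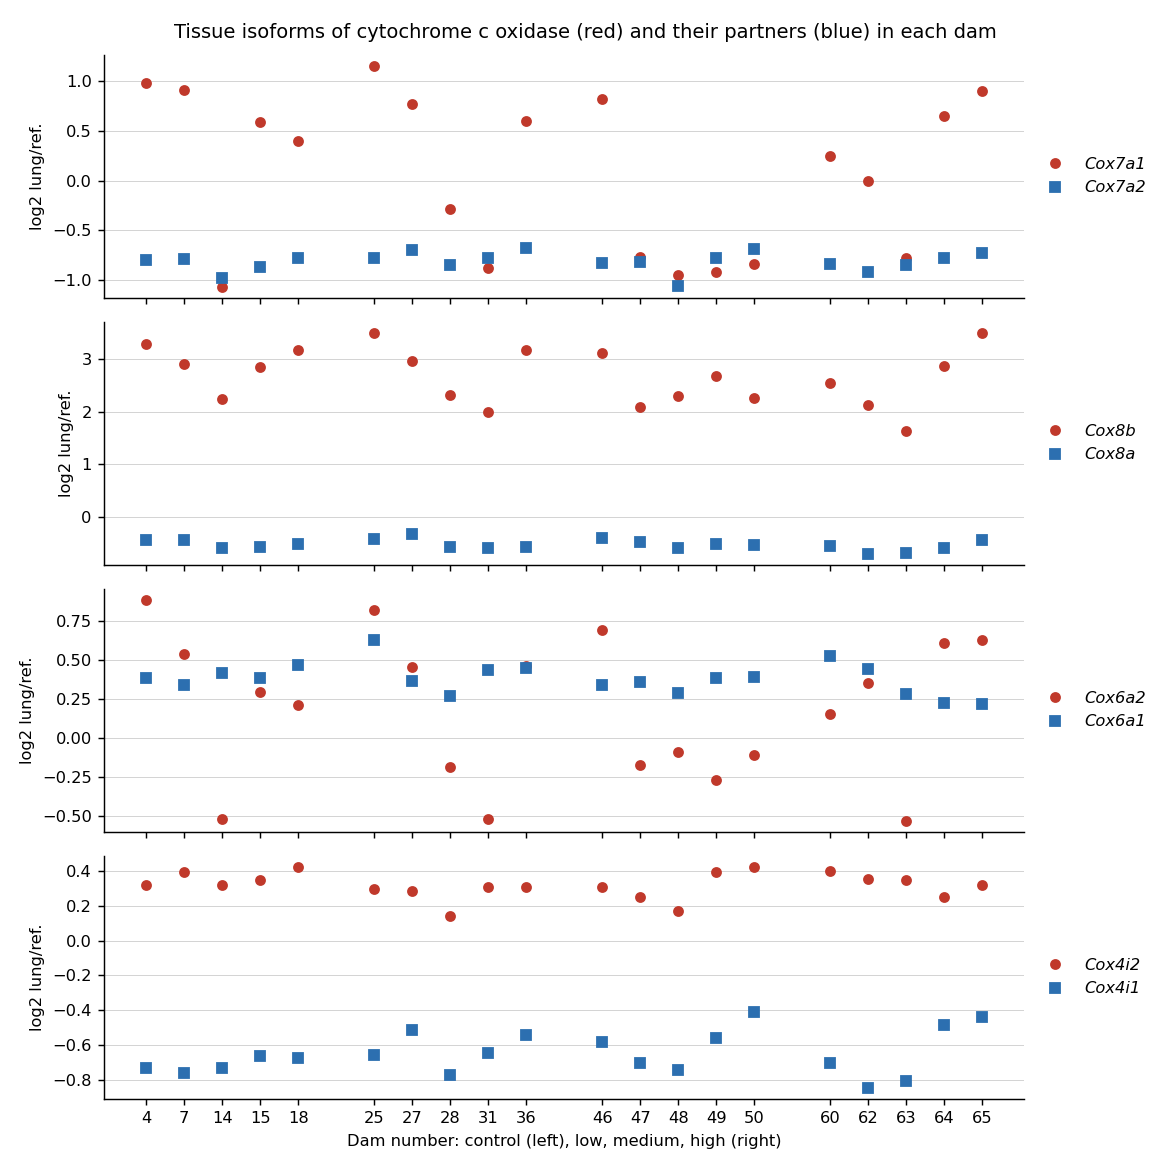
Log2 lung/reference ratio (vertical axes) of 4 isoforms of complex IV (red circles) and their partner genes (blue squares) in each of 20 dams (horizontal axis, by group). Control dam 14, low dams 28 and 31, medium dams 47 to 50 and high dam 63 lie below all other dams for Cox7a1 and for Cox6a2. Cox8b departs from this in medium dam 49 and high dams 60 and 62, and the partners and Cox4i2 vary less.

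Genes of heart muscle varied with these isoforms over the dams. Of 14 heart muscle markers, 13 were tested, among them Myl7 and Nppa of the atria, and their mean ratio ranged from -0.07 to 2.43 over the dams. In controls it was 2.24, 2.06, -0.04, 2.03 and 1.63, in low dams 2.28, 1.95, 1.18, 0.20 and 2.07, in medium dams 2.34, 0.40, 0.17, 0.07 and -0.07, and in high dams 1.51, 1.37, 0.74, 2.43 and 2.10. No gap between neighbouring dams was larger than 0.44. The median difference of the 13 markers was -1.18 at the medium, 0.03 at the high and -0.05 at the low dose, and 0 of them passed the test at any dose. Myl2, the light chain of the ventricle, differed by -0.01 ± 0.06 (SE) at the medium dose and was well above background on 7 of 20 arrays. The part of heart muscle in the medium difference of Cox7a1 was not tested. The mean of 9 skeletal muscle markers also varied, from -1.07 in control dam 14 to -0.57 in control dam 7. Single skeletal markers spanned from 0.41 (Myh2) to 1.99 (Myh4, named after its values were seen) over the dams. Myh2 was well above background on 6 and Myh4 on 15 of 20 arrays. Their relation to the isoforms was not computed.

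Over the 20 dams, Cox7a1 correlated with the heart marker mean at Pearson r = 0.973 (permutation p = 1e-05, the smallest that 100000 permutations can give) and Spearman rho = 0.919 (permutation p = 1e-05). Without the 2 dams farthest from the median marker level, medium dam 50 and control dam 14, r was 0.971. It was 0.956 after each slide's mean was removed and 0.971 after each group's mean was removed. Cox6a2 gave r = 0.898 (permutation p = 1e-05) and rho = 0.884 (permutation p = 2e-05), with 0.90 without those 2 dams and 0.847 within slides. Cox8b gave r = 0.764 (permutation p = 0.00012) and rho = 0.765 (permutation p = 0.00013), with 0.76 without those 2 dams and 0.692 within slides. The partners were lower: Cox8a gave r = 0.446 (permutation p = 0.0489), Cox7a2 0.355 (permutation p = 0.125) and Cox6a1 0.0279 (permutation p = 0.907). With Benjamini-Hochberg adjustment over all 162 relations computed, 81 members against 2 marker lists, the p of r was 0.000405 for Cox7a1 and Cox6a2, 0.00216 for Cox8b and 0.119 for Cox8a. All these values share the same arrays and reference, and the lists were chosen with earlier results known.

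Such relations were not confined to the muscle isoforms. With the heart markers, 21 of 81 members had an adjusted p of r under 0.05, all with a positive r. The share of all genes with such a relation was not computed, so the count cannot be read as a trait of the members. For the 78 members other than Cox7a1, Cox8b and Cox6a2, r ran from -0.25 to 0.79 with a median of 0.40. The highest of the 78 were Ndufab1, the mitochondrial acyl carrier protein, at 0.793 (permutation p = 5e-05, adjusted p = 0.00162), and Cox7b, a subunit made in most tissues, at 0.748 (permutation p = 0.00015, adjusted p = 0.00243). Their rho was 0.826 and 0.823, their r without the 2 farthest dams 0.742 and 0.745, and their r within slides 0.694 and 0.629. Ndufab1 was named after its value was seen. The within-group SDs of Ndufab1 and Cox7b were 0.15 and 0.14, far smaller than those of the muscle isoforms.

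Fat markers varied over the same dams. The mean of 7 fat markers, which include Adipoq and Fabp4, ranged from 0.57 to 3.67. Of 81 members, 28 had an adjusted p of r with it under 0.05, all with a positive r. The share of all genes was not computed here either, so this count too cannot be read as a trait of the members. The highest values belonged to Ndufab1 at r = 0.851 and Cox7b at 0.814 (permutation p = 1e-05 and adjusted p = 0.000405 for both), with rho of 0.85 and 0.847. Cox7a1 gave 0.786 (permutation p = 6e-05), Cox6a2 0.765 (permutation p = 0.00011), Cox8b 0.674 (permutation p = 0.00141) and the partner Cox8a 0.58 (permutation p = 0.00723). The adjusted p values of these 4 were 0.00162, 0.00216, 0.0152 and 0.0293, and their rho 0.844, 0.755, 0.615 and 0.516. Without low dam 25 and high dam 65, the 2 farthest, r was 0.85 for Ndufab1, 0.791 for Cox7b, 0.752 for Cox7a1, 0.725 for Cox6a2, 0.516 for Cox8b and 0.478 for Cox8a. Within slides it was 0.871, 0.75, 0.653, 0.624, 0.584 and 0.457. The part of heart muscle, skeletal muscle or fat in the levels of the members was not tested.

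**Figure D5:**
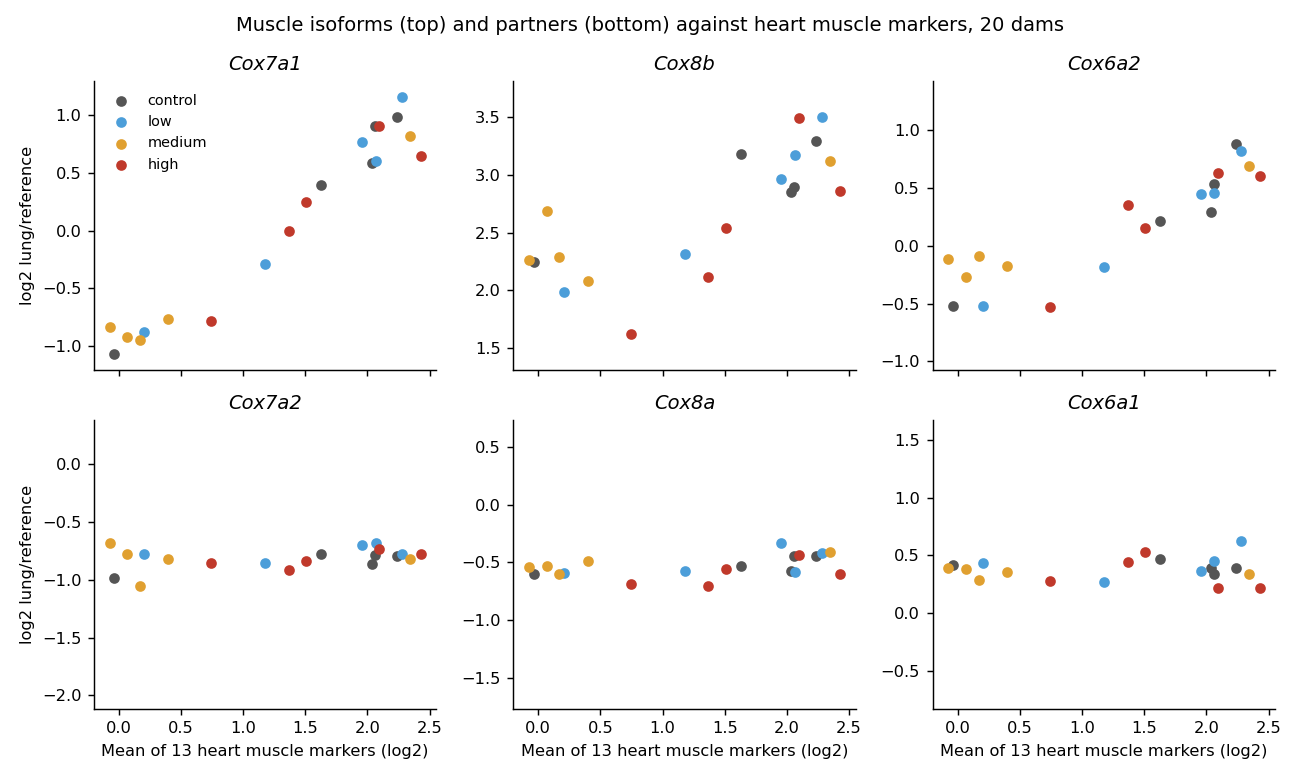
Log2 lung/reference ratio of 3 muscle isoforms (top) and their partners (bottom) against the mean log2 ratio of 13 heart muscle markers, 1 point per dam, coloured by group, with the same span on every vertical axis. The muscle isoforms rise along the horizontal axis, and the partners lie almost flat.

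The remaining isoforms differed in their relation to the heart markers. Atp5g1 gave r = 0.645 and Cox6b1 0.571 (permutation p with Benjamini-Hochberg adjustment 0.017 and 0.0352), while Cox6b2 gave -0.124. Cox4i2, the isoform known for its use in lung, lay between 0.14 and 0.43 in all dams and gave r = 0.0089 with the heart markers (permutation p = 0.97). Controls had 0.32, 0.40, 0.32, 0.35 and 0.43, and low dams 0.30, 0.28, 0.14, 0.31 and 0.31. All 5 low dams lay below all 5 controls, which 0.885% of all genes did at that dose (0 members lay wholly above, 0.611% of all genes), and the difference was -0.09 ± 0.05 (SE, adjusted p = 0.723). Medium and high dams overlapped the controls, with -0.05 ± 0.05 and -0.03 ± 0.05. Its lung signal was the dimmest of the members, and after normexp background correction its control ratio was 0.34 in place of 0.36. Its differences depended on the processing more than this level did. Over all settings and omissions of 1 dam they ran from -0.36 to -0.03 at the low and from -0.21 to -0.02 at the medium dose. Cox4i1, the partner, differed by 0.06 ± 0.08 at the high dose.

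Cox6b2, an isoform described in testis, was 1.79 ± 0.14 (SD, n = 5) in controls, or 3.46-fold above the reference, and differed by -0.23 ± 0.14 (SE) at the high dose (adjusted p = 0.433). Its partner Cox6b1 differed by -0.11 ± 0.08. Ndufa4 differed by -0.01 ± 0.09, Cox7b by 0.02 ± 0.09 and Cox7a2l by -0.07 ± 0.08 at the high dose. Cox7c had the lowest ratio of all members in controls, -3.71 ± 0.27 (SD, n = 5), or 13-fold below the reference on its 1 probe, and differed by 0.05 ± 0.12 (SE).

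Most members had a log2 ratio of lung over reference below 0. Lung was always labelled with Cy5 and the reference with Cy3, so abundance and dye cannot be told apart in these levels. In controls 61 of 81 had a mean log2 ratio under 0, and the median was -0.45, beside -0.02 over all genes. Only Cox8b and Cox6b2 were above 1, and 4 members were under -1. After normexp background correction and loess the control ratio of Cox8b was 2.87, that of Cox6b2 1.91 and that of Cox7c -3.50. The level depends on the probe: of 22 members with several kept probes, 4 had probes over 1 apart in controls, and those of Atp5b spanned -1.14 to 0.04. Differences between groups depended less on the probe in absolute size, with a median gap of 0.08 and a largest gap of 0.26 among the probes of a gene. Many of the differences were no larger than these gaps. For some members the sign at the high dose differed between probes, as for Sdha (-0.10 to 0.09) and Atp5f1 (-0.09 to 0.10, named after its values were seen).

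Genes that build, feed or regulate the chain showed no calls either. Of 24 tested assembly factors, 12 genes of electron carriers and coenzyme Q, 12 of mitochondrial biogenesis, 18 of the citrate cycle, 16 of glycolysis and 11 of mitochondrial antioxidants and uncoupling, 0 passed at any dose or in the trend. At the medium dose the median difference was -0.11 for the citrate cycle genes, -0.08 for glycolysis and -0.06 for the carriers, beside 0.01 over all genes. It was -0.03 for assembly factors, 0.01 for biogenesis and -0.02 for antioxidants and uncoupling. At the high dose the medians were -0.06, -0.08 and -0.06. Surf1, an assembly factor of complex IV, differed by -0.17 ± 0.05 (SE) at the high dose with the lowest adjusted p of these lists, 0.0804. Cs, citrate synthase, differed by -0.11 ± 0.04 (adjusted p = 0.23) and Nrf1, the regulator named above, by -0.12 ± 0.05 (adjusted p = 0.213), and all 5 high dams lay below all controls for Nrf1, as they did for 2% of all genes. In the list of Nrf1, Pprc1 differed by 0.13 ± 0.07 and Gabpa by -0.10 ± 0.06 at the high dose. Sod2, the superoxide dismutase of mitochondria, differed by 0.27 ± 0.09 (adjusted p = 0.141). From the list of Sod2, Ucp3 and Ucp2 had the opposite sign, -0.21 ± 0.08 and -0.16 ± 0.07. The name rule missed 8 tested genes whose current symbol belongs to the chain or its assembly, and their lowest adjusted p was 0.185. Cyc1, also among the carriers above, has a name outside the rule. The arrays list the others, such as Ndufv3, Uqcr10 and the assembly factor Ndufaf5, under another name. Subunits encoded in mitochondrial DNA were not analysed here.

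Markers of other lung cells gave 1 call beside these results. Siglecf, a marker of alveolar macrophages, fell by 0.93 on the log2 scale at the high dose (SE 0.15, adjusted p = 0.00416). It was the 1 call among 7 macrophage markers, whose median difference at that dose was 0.03. In the same list Emr1 differed by 0.29 ± 0.15 (SE) and Csf1r by -0.12 ± 0.09 at the high dose, so the list as a whole did not fall with Siglecf. Among 7 alveolar type 2, 8 ciliated, 10 pericyte and smooth muscle, 9 skeletal muscle, 7 fat and 5 red cell markers, 0 passed at any dose. The mean of the pericyte and smooth muscle markers was 1.83 ± 0.04 (SD, n = 5) in controls, 1.61 ± 0.17 in medium and 1.69 ± 0.08 in high dams. Its part in the values of the members was not tested.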

How the data were processed

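The 20 arrays (Agilent mouse, 43379 features that are not controls) were quantified with the software Feature Extraction. Its version was 9.5.1.1 on 18 arrays and 10.1.1.1 on 2, per the file headers, while the labels name another version. The deposited spot files hold median intensity and background per channel and a log10 ratio. The deposited value table holds log2 ratios of lung over reference. The sources used here do not say how the authors normalised it. Each column tracked the log2 ratio of the deposited median intensities without background subtraction (r 0.962 to 0.993) more closely than the software's log10 ratio (0.841 to 0.89), with medians from -0.05 to -0.03. Outlier spots were left out, spots of 1 probe were averaged, and probes well above background on 3 of 5 arrays of a group with at least 16 values were kept, which left 20120 genes, 1 probe each. Group means were fitted with limma 3.58.1 (R 4.3.3), and p was adjusted by Benjamini-Hochberg over all genes, threshold 0.05. The fit was tested on simulated data. Correlations and motif searches used Python 3.11.15 with scipy 1.17.1 and pandas 2.3.3. Each dam is 1 replicate, and 5 arrays a group limit the precision. Named genes were the 2 members of each complex with the smallest p at each dose, any member past the threshold, the isoforms and their partners, the highest and lowest member of each complex in controls, and in each other list the 3 genes lowest in p for the high group. The members and lists were chosen with earlier results of these data known. Of the 81 members, 79 matched a current symbol in a table of GRCm38.p6, and 4 of these have changed name. Alternatives covered background correction, scaling, probe choice, filters, slide, scan day and each dam left out.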

Additional observations from a re-analysis of the deposited data

Results flagged for a closer look

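In 168 groups of 5 dams checked, 37 named members and 5 complex means in 4 groups, 10 held a dam far from the other 4. Chance flags about 1 group in 20. Control dam 14 stood apart for Atp5b at -0.14, where the nearest control had 0.08, and for Cox7a1 at -1.07, where the nearest had 0.40. Medium dam 46 stood above the other medium dams for Cox7a1 at 0.82 (nearest -0.77) and for Cox6a2 at 0.69 (nearest -0.09). Low dam 28 was low for Cox6b2 at 1.03 (nearest 1.73) and for Cox4i2 at 0.14 (nearest 0.28). High dam 62 was low for Cox6b2 at 1.25 (nearest 1.61) and for Uqcrc1 at -0.91 (nearest -0.73). High dam 65 was high for Cox6b1 at -0.60 (nearest -0.82), and low dam 36 was low for Atp5s at -0.21 (nearest -0.10). Control dam 14 and low dam 28 lay on slide 3. The cause was not tested.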

How the results depend on the processing

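No member was called in any of 18 other settings for each dose (17 for the trend), nor in any of 20 fits that left out 1 dam: the count was 0 throughout. Over the same fits the number of all genes called ran from 10 to 702 at the high dose, 0 to 9 at the medium, 0 to 1 at the low dose and 4 to 799 for the trend, so the shares of all genes called depend on the setting. Of 4329 alternative values of the 37 named members, 0 passed the threshold and 199 changed sign. Among their mean differences within slides, 1 moved by more than the spread between dams: Atp5b at the medium dose, at -0.12 in place of -0.26. For the named members the other settings were not compared with that spread. In those, Cox4i2 at the low dose ran from -0.36 to -0.03 around -0.09, with a within-group SD of 0.07. Of 540 values of complex means, 47 changed sign and 1 moved: complex V at the low dose, -0.10 after normexp and loess in place of -0.03. With the normexp model of low dam 27 refitted without its lowest spot, the value was -0.05. Without control dam 14 the medium difference of Cox7a1 was -1.25 (adjusted p = 0.21) and without medium dam 46 it was -1.23 (adjusted p = 0.213). The adjusted p of Atp5c1 at the medium dose ran from 0.0938 to 0.852 and that of Atp5b from 0.134 to 0.874. The number of arrays limits what can be detected. Dams could not be paired by animal because the groups share no animal number. Slides do join dams of different groups, and the slide block and the differences within slides stand among the alternatives.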
